A study of Homo sapiens with 30 samples.

Results

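CA12, CA2, SLC16A1, SLC16A3, SLC4A2 and SLC4A7 encode carbonic anhydrases and membrane transporters that move acid, lactate or bicarbonate, and they were followed as a list of 6 genes over 30 arrays. A gene was measured here where the platform's annotation gave it a probe set with that symbol alone, and the probe set with the highest mean log2 value stood for the gene. That held for 3 of the 6, CA12, CA2 and SLC4A7, out of 12690 genes with such a probe set, while SLC16A1, SLC16A3 and SLC4A2 were not analysed here, nor was CA9. CA12 and SLC4A7 were among the 7614 brighter genes that were tested, and CA2 was too dim for that and is given by its values.

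The study profiled 3 human carcinoma cell lines in monolayer culture on Affymetrix arrays, in air and in hypoxia below 0.01% oxygen. RCC4, a renal carcinoma line, was used as VHL-null cells and as cells with wild-type VHL put back, called VHL-restored here,, sampled at 0, 1, 2, 4, 6 and 18 h and again 1 h and 4 h after air was returned at 18 h. H1299, a non-small cell lung cancer line, was used p53-null and with p53 put back at 0 h and 24 h, and HCT116, a colon carcinoma line, p53-null and p53 wild type at 0, 12 and 24 h. Independent replicates, 2 a group, were run for RCC4 at 0 h and 18 h, and each remaining group is a single array. The p-values therefore cover only how far these arrays spread, and whether a derived line is 1 clone or a pool is not given in the sources used here.

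Cells that run on glycolysis export lactate together with protons, and carbonic anhydrases speed the interconversion of carbon dioxide and bicarbonate that buffers this acid. CA12 is a carbonic anhydrase of the plasma membrane with its active site outside the cell, CA2 is the abundant cytosolic enzyme, and SLC4A7 is a sodium-bicarbonate cotransporter that brings bicarbonate into the cell. VHL is part of the ubiquitin ligase that marks the alpha subunits of hypoxia-inducible factor, HIF, for degradation in oxygen, and CA12 is known as a gene that VHL represses in renal carcinoma cells.

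HIF binds short motifs with the core ACGTG or GCGTG, so the RefSeq promoter windows of the members that the results turn on, and of PDK1 and LDHA, HIF targets that restrain pyruvate oxidation and make lactate, were searched for both motifs on both strands. Each window holds 250 bases before and 50 bases after the start site on GRCh38.p14, capitals mark a match, CACGC is GCGTG and CACGT is ACGTG read on the other strand, and CACGTG would count once on each strand. The CA12 window is chr15:63381797-63382096 on the minus strand, that of SLC4A7 is chr3:27484335-27484634 on the minus strand, and that of PDK1 is chr2:172555840-172556139 on the plus strand.
CA12: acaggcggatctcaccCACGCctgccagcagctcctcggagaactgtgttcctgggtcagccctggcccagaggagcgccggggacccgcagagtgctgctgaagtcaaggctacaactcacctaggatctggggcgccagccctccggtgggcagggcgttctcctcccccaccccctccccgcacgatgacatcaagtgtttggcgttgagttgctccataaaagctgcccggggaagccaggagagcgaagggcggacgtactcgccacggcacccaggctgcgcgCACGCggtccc
SLC4A7: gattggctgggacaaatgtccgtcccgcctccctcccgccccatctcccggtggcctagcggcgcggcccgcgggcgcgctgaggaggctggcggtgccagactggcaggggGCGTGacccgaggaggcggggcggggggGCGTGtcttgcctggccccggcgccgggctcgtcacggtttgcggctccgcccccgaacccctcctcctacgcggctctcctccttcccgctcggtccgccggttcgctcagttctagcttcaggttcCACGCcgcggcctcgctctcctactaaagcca
PDK1: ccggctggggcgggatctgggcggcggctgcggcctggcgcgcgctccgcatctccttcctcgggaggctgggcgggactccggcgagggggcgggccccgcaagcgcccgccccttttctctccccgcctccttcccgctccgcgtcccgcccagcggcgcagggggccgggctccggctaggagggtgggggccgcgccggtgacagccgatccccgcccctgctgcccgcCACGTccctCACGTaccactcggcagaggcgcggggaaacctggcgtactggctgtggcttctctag
The CA12 window held 2 GCGTG matches, at bases 17 to 21 and 290 to 294, and no ACGTG. The SLC4A7 window held 3 GCGTG matches and no ACGTG, and a window at another SLC4A7 start held neither motif. The PDK1 window held 2 ACGTG matches, and a window at another PDK1 start held neither. A window of LDHA, not printed, held 6 matches, 5 of them ACGTG, and another LDHA start held 1 GCGTG. A match to either motif was common, in 48.4% of 35116 promoter windows and 58.6% of the 9182 windows of tested genes, and 23.1% and 30.3% held 2 or more matches. ACGTG was in 21.4% and 24.1% of these windows. As many as 5 or more matches, as in the first LDHA window, were in 1.98% and 2.83%. The letters describe these windows and mark no bound site.

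The arrays fell into a set of 18 and a set of 12 by 5 control entries that are blank in the first, with a median listed intensity of 145 to 174 in set 1 and 201 to 222 in set 2. All arrays of the p53 lines are in set 1, together with the 2 h and 6 h arrays of RCC4 and its first replicates, and set 2 is made up of the rest. VHL, dim and listed at 14 to 109 on VHL-null and at 1 to 40 on 8 of 10 VHL-restored arrays, does not check the genotypes, because which part of the transcript its probes read is not stated. Renal markers stood above the array median for 1 to 2 of the 4 measured in RCC4 and 0 to 1 in H1299 and HCT116. Colon markers did so for 2 of 7 in HCT116 and H1299 and 0 to 2 in RCC4, and lung markers for 3 of 5 in every line. GPA33 and KRT20 were at 0 or null on all HCT116 and all H1299 arrays, and VIL1 on all H1299 arrays but not on all HCT116 arrays. By these counts the colon and lung markers did not tell the lines apart. The pair of H1299 arrays labelled p53 wild type went against its time labels: ADM, BNIP3, NDRG1, PDK1 and LDHA, 5 genes that rise in hypoxia, were all lower on the array labelled 24 h than on that labelled 0 h, and all 5 were higher at 24 h in H1299 p53-null and in both HCT116 genotypes. Over the 7614 tested genes the change on this pair had a Pearson r of -0.61 with that in H1299 p53-null cells, while the changes in the HCT116 genotypes had r = 0.61 with each other. Fitted differences that rest on these arrays are given with and without them.

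CA12 was bright in VHL-null RCC4 cells from the start and dim in VHL-restored cells in air. Its intensity in VHL-null cells was 478 and 553 at 0 h, 683 at 1 h, 461 at 2 h, 608 at 4 h, 546 at 6 h, 686 and 779 at 18 h, 758 after 1 h of reoxygenation and 689 after 4 h. In VHL-restored cells it was 69 and 80 at 0 h, 282 at 1 h, 72 at 2 h, 246 at 4 h, 113 at 6 h, 239 and 256 at 18 h, 253 after 1 h of reoxygenation and 294 after 4 h. The lowest VHL-null array lay above the highest VHL-restored array, so the genotypes did not overlap at any time. The share of all tested genes that separate like this is not given here. For scale, the fit of VHL over the 20 RCC4 arrays called 15.1% of them. In bulk cultures, fewer cells that express a gene and less RNA per cell cannot be told apart.

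**Figure D1:**
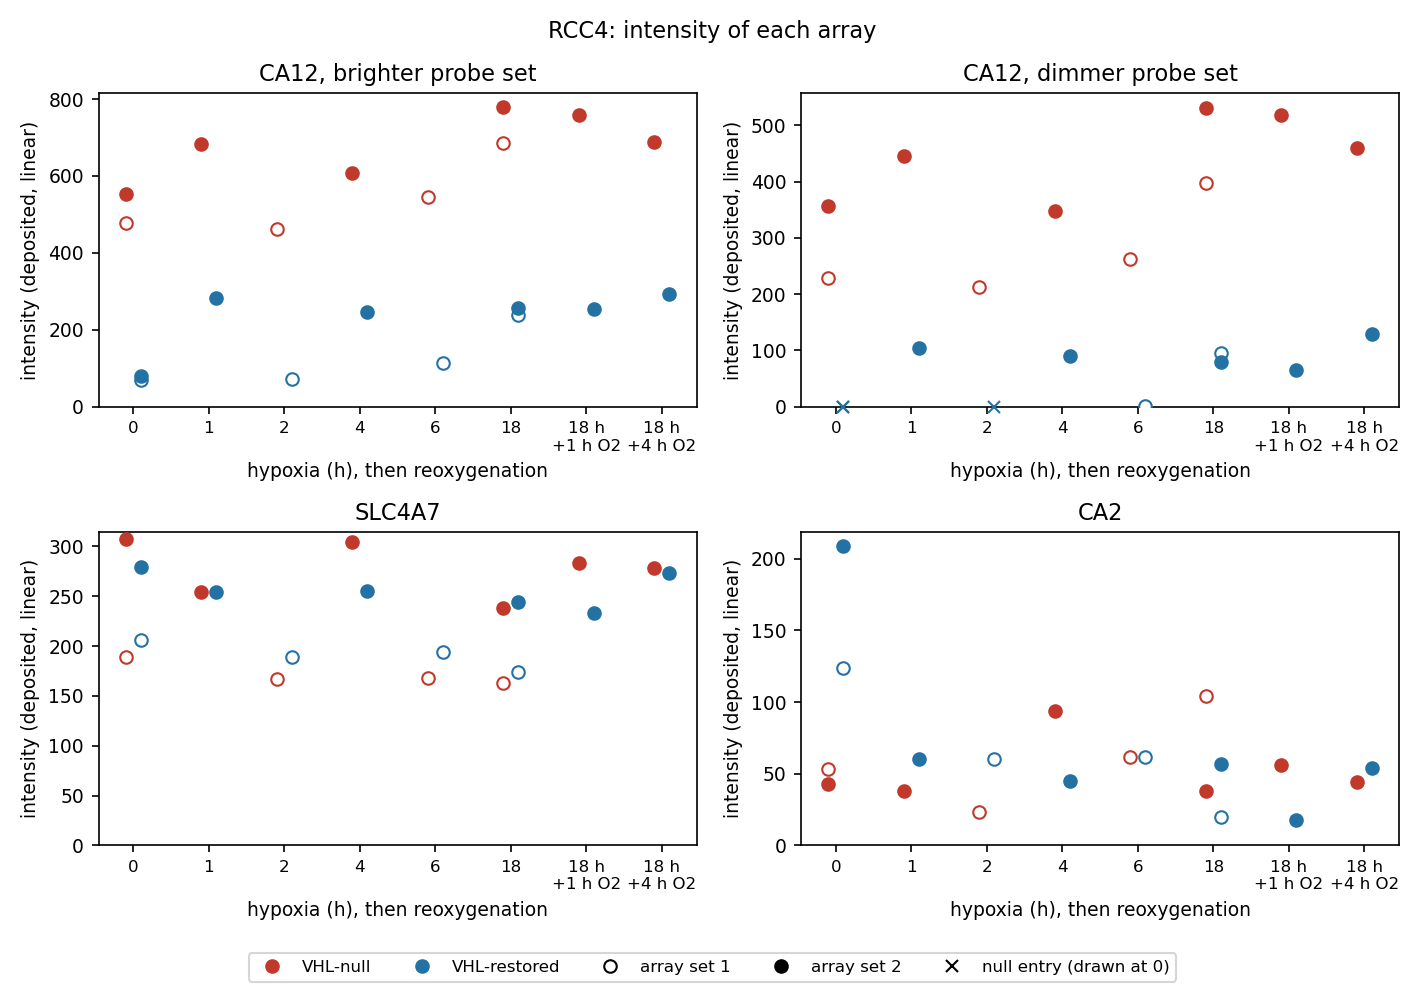
Deposited linear intensity on each RCC4 array against hypoxia or reoxygenation time for CA12 (both probe sets), SLC4A7 and CA2, with VHL-null arrays in red, VHL-restored arrays in blue, set 1 open and set 2 filled; crosses are null entries drawn at 0. CA12 runs from 461 to 779 in VHL-null cells and from 69 to 294 in VHL-restored cells, SLC4A7 separates by array set, and CA2 is highest on the VHL-restored arrays at 0 h.

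Every difference below is on the log2(value + 16) scale after centring each array on its median gene, which understates the change of dim genes. At 0 h CA12 was higher without VHL by 2.50 (SE 0.267, n = 2 and 2), or 5.64-fold, with limma's adjusted p = 0.0346, in a comparison that called 0.118% of the tested genes. The difference was 2.59 in set 1 and 2.40 in set 2, and fitting the replicate number as a block made the SE 0.0973 and the adjusted p 4.79e-11, at 7.51% of genes called. The call without the block was lost on leaving out any of 6 of the 8 arrays (adjusted p up to 0.239), with the difference at 2.22 to 2.77. These were both arrays of VHL-null 0 h, both of VHL-restored 0 h and both of VHL-restored 18 h. That call was also lost without the filter on dim genes. CA12 passed this filter by its mean over all arrays, the bright VHL-null arrays included.

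At 18 h the CA12 difference was 1.44 (SE 0.267, 2.71-fold), with 1.44 in set 1 and 1.43 in set 2. It missed the threshold without the block (adjusted p = 0.310, 0.0263% of genes called) and passed it with the block (adjusted p = 1.21e-07, 7.59% called). Over all 20 RCC4 arrays CA12 was higher in VHL-null cells in 10 of 10 pairs of arrays, by 0.97 to 2.59, or 1.96-fold to 6.03-fold. The fit over the 20 arrays gave 1.72 (SE 0.164, 3.29-fold, adjusted p = 2.95e-06), among 15.1% of genes called, and it stayed called on leaving out each of the 8 replicated arrays in turn.

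With the replicate block CA12 rose in hypoxia in both genotypes, and by more on the log2 scale in cells with VHL. In linear intensity the rise at 18 h was larger without VHL, from 478 to 686 and from 553 to 779. With VHL it went from 69 to 239 and from 80 to 256. In VHL-restored cells the 18 h change was 1.59 (SE 0.267, 3.01-fold), at 1.62 in set 1 and 1.56 in set 2, with an adjusted p of 0.171 without the block (0.0394% of genes called) and 1.43e-08 with it (6.58% called). In VHL-null cells the change was 0.53 (1.45-fold), at 0.47 in set 1 and 0.59 in set 2, with an adjusted p of 1.00 without the block and 0.0182 with it (0.486% called). Without the block no gene was called in VHL-null cells by limma, and 51 had an unadjusted p under 0.05. The difference of these changes, VHL-null minus VHL-restored, was -1.06, with an adjusted p of 1.00 without the block, where limma called 0 genes and 45 had an unadjusted p under 0.05. With the block the difference stayed at -1.06 (SE 0.138), with an adjusted p of 0.000608, at 0.565% of genes called. After 18 h VHL-restored cells, at 239 and 256, were still below VHL-null cells in air.

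The second CA12 probe set, dimmer, showed the same order and correlated with the first at Pearson r = 0.985 over the 20 RCC4 arrays, which share the genotype difference. It was listed at 212 to 530 in VHL-null cells. In VHL-restored cells it was null on both 0 h arrays and at 2 h, listed at 2 at 6 h, and at 66 to 129 on the other 6 arrays. It was higher without VHL in 10 of 10 pairs.

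The time course of CA12 in VHL-restored cells split by array set. Against the 0 h array of the same set, CA12 was higher by 1.76 at 1 h and 1.58 at 4 h in set 2, and by 0.08 at 2 h and 0.64 at 6 h in set 1. At 18 h, where both sets were measured, the changes were 1.62 and 1.56. The 1 h array therefore stood above the 2 h and 6 h arrays, and the times from 1 h to 6 h cannot be told apart from the set, since each lies in 1 set.

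Other hypoxia genes moved in part with this split. NDRG1, a hypoxia-induced differentiation gene, changed in VHL-restored cells by 1.71 at 1 h, 0.54 at 2 h, 1.77 at 4 h and 1.37 at 6 h. ADM, the vasodilator adrenomedullin, changed by 2.84, 2.49, 2.90 and 2.57 at the same times. BNIP3 changed by 2.09, 0.87, 2.21 and 2.05, PDK1 by 1.40, 0.90, 1.63 and 1.30, and LDHA by 0.44, 0.18, 0.41 and 0.31. All these genes and CA12 were lowest at 2 h, where ADM was still high. The part of the array set in this was not tested. At 18 h in set 2 the changes were 1.56 for CA12, 2.62 for ADM and 1.55 for NDRG1. For BNIP3, PDK1 and LDHA they were 2.01, 1.42 and 0.48. The 1 h changes were thus about as large as those at 18 h.

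**Figure D2:**
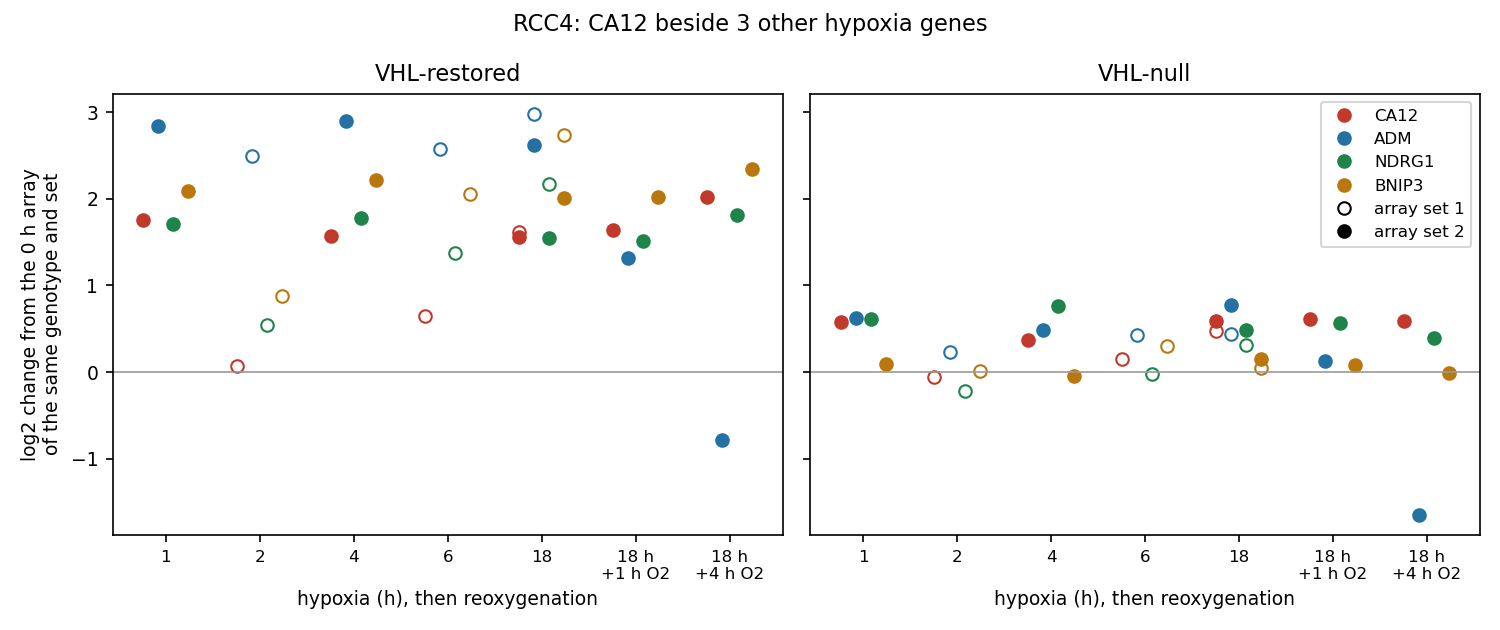
Log2 change from the 0 h array of the same genotype and array set (vertical axis) at each hypoxia or reoxygenation time for CA12, ADM, NDRG1 and BNIP3, in VHL-restored cells (left) and VHL-null cells (right), set 1 open and set 2 filled. In VHL-restored cells CA12 lies at 0.08 at 2 h and between 1.56 and 2.02 at 18 h and in reoxygenation, while ADM falls to -0.78 after 4 h of reoxygenation.

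At 1 h CA12 stood 1.76 above the 0 h array of its set in VHL-restored cells and 0.58 above it in VHL-null cells. Fits over both genotypes average such unlike changes and count their gap as spread. The average CA12 change from 0 h was 0.95 at 1 h, 0.24 at 2 h, 0.75 at 4 h, 0.62 at 6 h and 1.06 at 18 h. None passed the threshold without the block (adjusted p 0.129 to 0.644), in fits that called 1.37%, 0.0263%, 5.92%, 0% and 0.171% of genes in that order; at 6 h limma called 0 genes and 254 had an unadjusted p under 0.05. With the array set as a block the 18 h change was called (adjusted p = 0.0229, 2.96% called), as was the 1 h change, at 1.16 (adjusted p = 0.0481, 3.61% called). The blocked changes at 2 h, 0.02 (adjusted p = 0.997, 0.144% called), and at 4 h, 0.97 (adjusted p = 0.0560, 10.6% called), were not. Without the VHL-null 0 h replicate 1 array the 18 h change was 1.30 (adjusted p = 0.0292).

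After 4 h of reoxygenation CA12 stood at 689 in VHL-null and 294 in VHL-restored cells, close to its 18 h intensities. Its average change from 0 h over both genotypes was 0.90 after 1 h (adjusted p = 0.245, 0.0263% of genes called) and 1.08 after 4 h (adjusted p = 0.0722, 3.31% called). With the block the second was 1.30 (adjusted p = 0.0172, 11.0% called). Without the VHL-null 0 h replicate 1 array the 4 h change was 1.32 (adjusted p = 0.0278), and as a mean over both probe sets it was 1.61 (adjusted p = 0.0303). Between 18 h of hypoxia and 4 h of reoxygenation it differed by 0.02 (95% interval -0.65 to 0.69, adjusted p = 0.976), where 0.801% of genes were called. With the array set as a block, where all reoxygenation arrays are in set 2, this was 0.24 (-0.42 to 0.89, adjusted p = 0.700, 2.63% called). Over the same step ADM fell by 2.89 (SE 0.457, adjusted p = 0.00512). In VHL-restored cells NDRG1 and BNIP3, a mitophagy receptor, were still 1.82 and 2.34 above 0 h after 4 h of reoxygenation.

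The gap between genotypes also differed from gene to gene. At 18 h ADM differed between genotypes by 0.01 (SE 0.195), against 1.44 for CA12. PDK1 was higher in VHL-null cells in 4 of 10 pairs, ADM in 8 of 10 and LDHA in 9 of 10, where CA12 was higher in 10 of 10. These counts describe the arrays, and no difference between genes was tested.

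SLC4A7 showed no difference by VHL that passed the test. Its intensity in VHL-null cells was 189 and 307 at 0 h, 254 at 1 h, 167 at 2 h, 304 at 4 h, 168 at 6 h, 163 and 238 at 18 h, 283 after 1 h of reoxygenation and 278 after 4 h. In VHL-restored cells it was 206 and 279 at 0 h, 254 at 1 h, 189 at 2 h, 255 at 4 h, 194 at 6 h, 174 and 244 at 18 h, 233 after 1 h and 273 after 4 h. Set 1 arrays ran from 163 to 206 and set 2 arrays from 233 to 307, so raw levels followed the array set while the genotypes overlapped. A second SLC4A7 probe set was null on all 30 arrays.

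After centring, the VHL difference of SLC4A7 was -0.05 at 0 h (95% interval -0.41 to 0.31) and -0.13 at 18 h (-0.49 to 0.23), and over 20 arrays it was -0.06 (-0.17 to 0.05, adjusted p = 0.527). The first and the third turn to 0.01 without centring. The 18 h change was -0.16 in VHL-restored and -0.23 in VHL-null cells, both with adjusted p = 1.00. SLC4A7 was 0.37 higher after 4 h of reoxygenation than at 18 h (SE 0.102, adjusted p = 0.113). With the array set as a block this was 0.41 (SE 0.0883, adjusted p = 0.0223), among 2.63% of genes called.

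CA2 was highest in VHL-restored cells in air. There its intensity was 124 and 209 at 0 h, then 60 at 1 h, 60 at 2 h, 45 at 4 h, 62 at 6 h, 20 and 57 at 18 h, 18 after 1 h of reoxygenation and 54 after 4 h. In VHL-null cells it was 53 and 43 at 0 h, 38 at 1 h, 23 at 2 h, 94 at 4 h, 62 at 6 h, 104 and 38 at 18 h, 56 after 1 h and 44 after 4 h. Centred on the array median, 0 of 8 later VHL-restored arrays stood above the 0 h array of their set, and 6 of 8 VHL-null arrays did.

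The mean of CA2 lay below the filter on dim genes, and a fit of all genes without that filter gave no call for CA2. The 18 h change in VHL-restored cells was -1.74 (95% interval -3.11 to -0.38, adjusted p = 1.00, or 0.322 with the block). The VHL difference at 0 h was -1.53 (adjusted p = 1.00, or 0.352 with the block). In VHL-restored cells the values of CA2 went down where those of CA12 went up, a direction that no call for CA2 backs. Later arrays of a set are all compared with the same 0 h array. The Pearson r between CA2 and CA12 was -0.39 over 20 arrays that share genotype and array set.

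**Figure D3:**
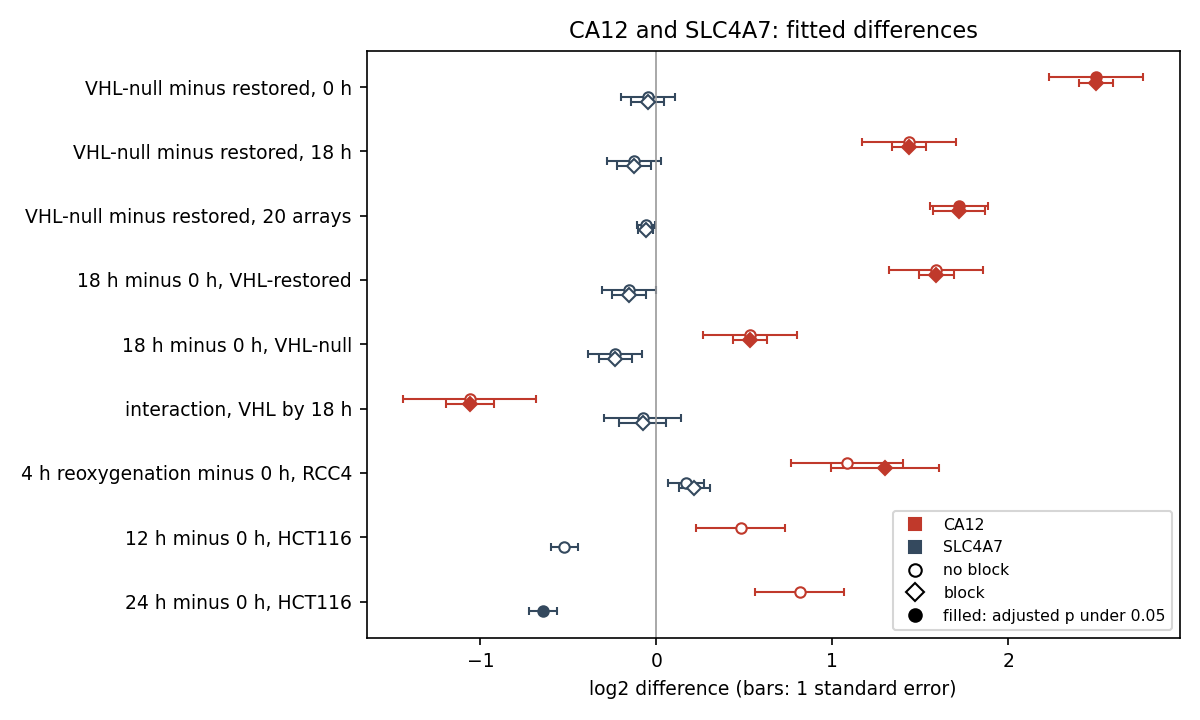
Log2 differences (horizontal axis) of CA12 and SLC4A7 in the RCC4 and HCT116 comparisons, with bars of 1 standard error; circles are fits without a block, diamonds fits with the replicate number or array set as a block, and filled symbols have an adjusted p under 0.05. CA12 lies at 2.50 for VHL at 0 h, SLC4A7 lies near 0 in the VHL comparisons, and in HCT116 at 24 h SLC4A7 stands at -0.64 and CA12 at 0.81.

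SLC4A7 fell in hypoxic HCT116 cells. Its intensity in p53-null cells was 278 at 0 h, 190 at 12 h and 165 at 24 h, and in p53 wild-type cells it was 246, 160 and 156. Both later arrays lay below the 0 h array in each genotype. At 24 h the change was -0.64 (SE 0.0776, limma's adjusted p = 0.0296), with -0.71 in p53-null and -0.58 in wild-type cells, where 3.81% of genes were called. At 12 h it was -0.52 (SE 0.0776, adjusted p = 0.0824), with 0.735% called. The 24 h call was lost without the filter on dim genes (adjusted p = 0.0993) and as a mean over both probe sets, at -0.29 (adjusted p = 0.0912). It was also lost in a fit added later that shares 1 spread with H1299 (adjusted p = 0.208), where limma called 0% of genes and 1024 had an unadjusted p under 0.05, and it missed there without the H1299 arrays labelled p53 wild type too (adjusted p = 0.0653, 1.58% called).

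In H1299 SLC4A7 was 380 at 0 h and 344 at 24 h in p53-null cells, and 362 and 357 on the arrays labelled 0 h and 24 h of p53 wild-type cells. Over HCT116 and H1299 together the 24 h change was -0.36 (SE 0.135, adjusted p = 0.654), and -0.47 (adjusted p = 0.247) without the H1299 arrays labelled p53 wild type. Limma called 0% of genes over all 8 arrays, with 427 at an unadjusted p under 0.05, and 0.0919% without that pair. The change in HCT116 minus that in H1299 was -0.57 (adjusted p = 0.801), a comparison that also called 0% of genes, with 435 at an unadjusted p under 0.05. Without that pair it was -0.52 (adjusted p = 0.568), again with 0% called and 579 at an unadjusted p under 0.05. The H1299 change was then -0.12 (adjusted p = 0.974, 0.197% called).

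CA12 stayed dim in both p53 lines. In HCT116 it was 33, 43 and 44 at 0, 12 and 24 h in p53-null cells and 35, 64 and 111 in p53 wild-type cells. In H1299 it was 32 and 27 at 0 h and 24 h in p53-null cells, and 44 and 23 on the arrays labelled 0 h and 24 h of p53 wild type. Both HCT116 genotypes ended above their 0 h array, with the largest value in wild-type cells. The HCT116 change was 0.48 at 12 h (adjusted p = 0.440) and 0.81 at 24 h (SE 0.252, adjusted p = 0.156).

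Over both lines CA12 changed at 24 h by 0.21 (adjusted p = 0.807), and by 0.49 (adjusted p = 0.475) without the H1299 arrays labelled p53 wild type. The p53 difference, wild type minus null, was 0.35 (SE 0.172, adjusted p = 0.735), higher in 4 of 5 pairs, and 0.53 (adjusted p = 0.689) in HCT116 alone. For SLC4A7 it was -0.10 (adjusted p = 0.749), and -0.16 (adjusted p = 0.719) in HCT116 alone. Limma called 0% of genes for p53, with 526 at an unadjusted p under 0.05. The second CA12 probe set was null on 9 of these 10 arrays and listed at 9 in p53 wild-type HCT116 cells at 24 h.

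CA2 was near the bottom of the range in both lines, with 7, null and 13 in p53-null HCT116 cells at 0, 12 and 24 h and 20, 24 and 54 in p53 wild-type cells. In H1299 it was 25 and null in p53-null cells and null and 27 on the arrays labelled 0 h and 24 h of p53 wild type.

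**Figure D4:**
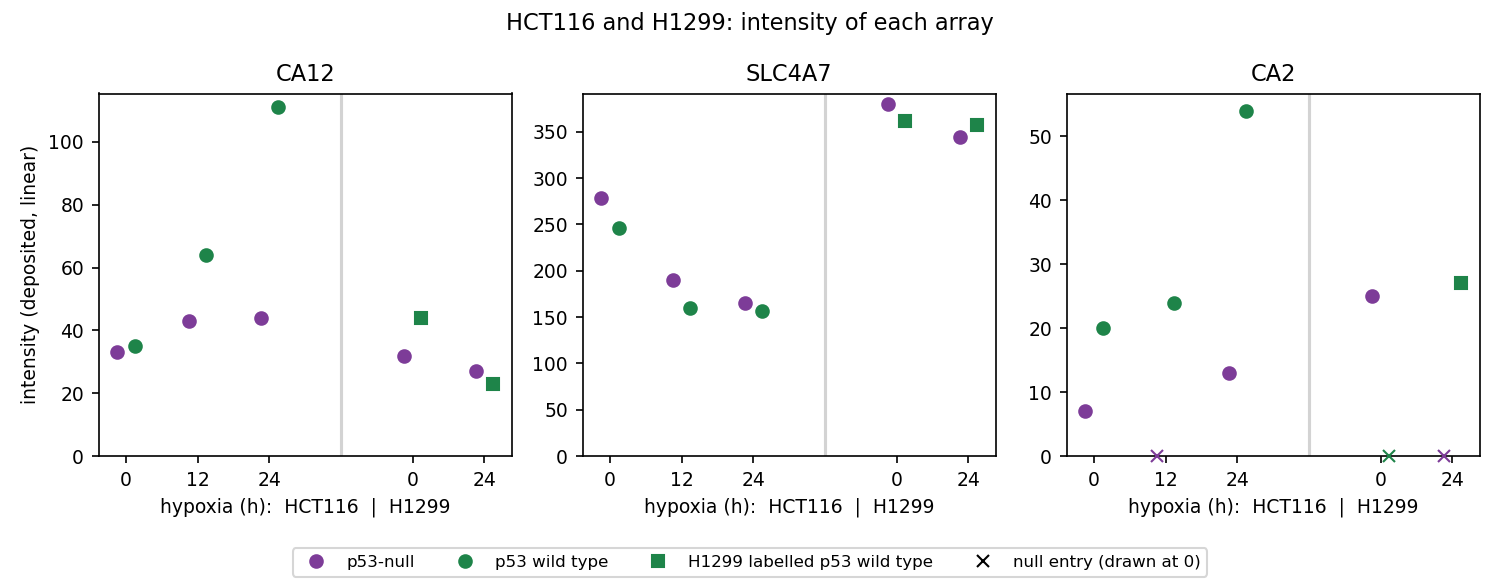
Deposited linear intensity of CA12, SLC4A7 and CA2 on each HCT116 and H1299 array against hours of hypoxia, with p53-null arrays in purple, p53 wild-type arrays in green, the H1299 arrays labelled p53 wild type as squares and null entries as crosses at 0. SLC4A7 falls from 278 and 246 to 165 and 156 in HCT116, and CA12 reaches 111 only on the HCT116 wild-type array at 24 h.

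Over the 6 backgrounds, late hypoxia (18 h or 24 h) changed CA12 by 0.50 (adjusted p = 0.442) and SLC4A7 by -0.30 (adjusted p = 0.395), and by 0.72 and -0.36 (adjusted p 0.210 and 0.155) without the H1299 arrays labelled p53 wild type. Limma called 0% of genes with all arrays, where 925 had an unadjusted p under 0.05, and 0.0657% without that pair.

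The lines differed in air. SLC4A7 was lower in RCC4 than in H1299 by 1.05 on the log2 scale (fitted difference -1.05, SE 0.128, adjusted p = 0.000198) and lower than in HCT116 by 0.59 (-0.59, adjusted p = 0.00469), in comparisons that called 35.3% and 40.5% of genes. Centring moved these: uncentred, they were -0.59 (adjusted p = 0.0881) and -0.11 (adjusted p = 0.690). Without the H1299 array labelled p53 wild type, the values were -1.08 (adjusted p = 0.00378, 17.4% called) and -0.59 (adjusted p = 0.00997, 36.6% called). H1299 stood 0.46 above HCT116 (adjusted p = 0.154, 3.95% called), and 0.49 above it without that array (adjusted p = 0.438, 1.56% called).

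In air the CA12 difference that passed the test was that of VHL-null RCC4 cells from the other lines. RCC4 as 1 line was 1.57 above H1299 (adjusted p = 0.0999) and 1.65 above HCT116 (adjusted p = 0.0794). With the RCC4 genotypes apart, a split chosen after seeing the data, VHL-null cells were 2.82 above H1299 (7.05-fold, adjusted p = 6.96e-05, 23.0% called) and 2.90 above HCT116 (7.46-fold, adjusted p = 6.49e-05, 29.0% called). VHL-restored cells were 0.32 above H1299 (95% interval -0.18 to 0.83, adjusted p = 0.302, 23.7% called) and 0.40 above HCT116 (-0.10 to 0.91, adjusted p = 0.195, 29.2% called). Without the H1299 array labelled p53 wild type, the VHL-null and VHL-restored values against H1299 were 2.98 (adjusted p = 0.000573) and 0.49 (adjusted p = 0.308). In these centred fits VHL-restored RCC4, H1299 and HCT116 did not differ beyond their spread. The deposited intensities of VHL-restored RCC4 at 0 h, 69 and 80, lay above those of H1299 (32 and 44) and HCT116 (33 and 35). Array medians were also higher in RCC4, and values without centring are not given for this split.

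Genes with the pattern most like that of CA12 over the 20 RCC4 arrays were WDR13 (Pearson r = 0.948), PPARD (0.942), ABCA3 (0.915), FABP6 (0.907) and SYT13 (0.906). For SLC4A7 they were CEP290 (0.800), MAN1A2 (0.729) and TMEM33 (0.697), and for CA2 they were ZSCAN31 (0.758), SNAPC5 (0.671) and FLRT3 (0.643). These arrays share genotype and array set, and the values describe likeness alone.

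Other acid-base genes were taken from 6 lists of 85 genes, of which 56 had a probe set and 32 were tested. The lists hold other carbonic anhydrases (1 tested), monocarboxylate transporters and their chaperones (2), bicarbonate transporters (6), sodium-proton exchangers and regulators (4), the proton-pumping vacuolar ATPase (14) and lactate production (5). For VHL over 20 arrays 3 of the 32 were higher and 3 lower, with a median of -0.02 beside -0.05 for all tested genes, of which 15.1% were called. With the array set as a block 9 were higher and 6 lower, at 34.2% of genes called.

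The called genes of that comparison moved far less than CA12. ATP6AP2, an accessory subunit of the ATPase, was 0.46 higher without VHL, ATP6V0B was 0.35 higher and ATP6V1H was 0.29 higher, while ATP6V1G1 was 0.42 lower (fitted -0.42). BSG, the chaperone of monocarboxylate transporters, stood at -0.45 and LDHB, a lactate dehydrogenase subunit, at -0.21; both are named after their values were seen.

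Without the block, VHL at 0 h and at 18 h called 0.118% and 0.0263% of all tested genes. The 18 h hypoxia change called 0.0394% of them in VHL-restored and 0% in VHL-null cells. Near those shares, the 2 replicated times gave 0 of 32 calls without the block, both for VHL and for 18 h hypoxia in either genotype. With it, VHL at 0 h had 3 higher and 2 lower, where 7.51% of all tested genes were called: PDK1 at 1.12 and LDHA, the lactate dehydrogenase subunit of glycolytic cells, at 0.76 were higher, ATP6V1G1 at -0.50 and ATP6V1A at -0.37 were lower, and TCIRG1, an ATPase subunit, was higher by 0.35 and is named after its value was seen. For 18 h hypoxia in VHL-restored cells PDK1 rose by 1.53 with the block and SLC26A2, a sulfate transporter, stood at -0.59, the 2 of 32 called (6.58% of all genes). PDK1 was also the 1 acid-base gene called for the interaction, at -1.38, beside CA12 at -1.06 (0.565% of all genes). For VHL at 18 h TCIRG1 was 0.50 higher and ATP6V1G1 stood at -0.40, again 2 of 32 (7.59% of all genes).

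In HCT116 cells 4 of 32 rose at 24 h and 0 fell, with a median of 0.13 beside 0.03 for all tested genes, of which 3.81% were called. LDHA went from 958 and 978 at 0 h to 2074 and 1868 at 24 h, a change of 1.02 (SE 0.0753, adjusted p = 0.0130). PDK1 went from 47 and 42 to 154 and 203, a change of 1.68 (SE 0.140, adjusted p = 0.0161). ATP6V0E1 rose by 0.55 and ATP6V1H by 0.63, both ATPase subunits. LDHA and PDK1 were also the 2 of 32 called at 12 h, at 0.99 and 1.79, where 0.735% of all genes were called.

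**Figure D5:**
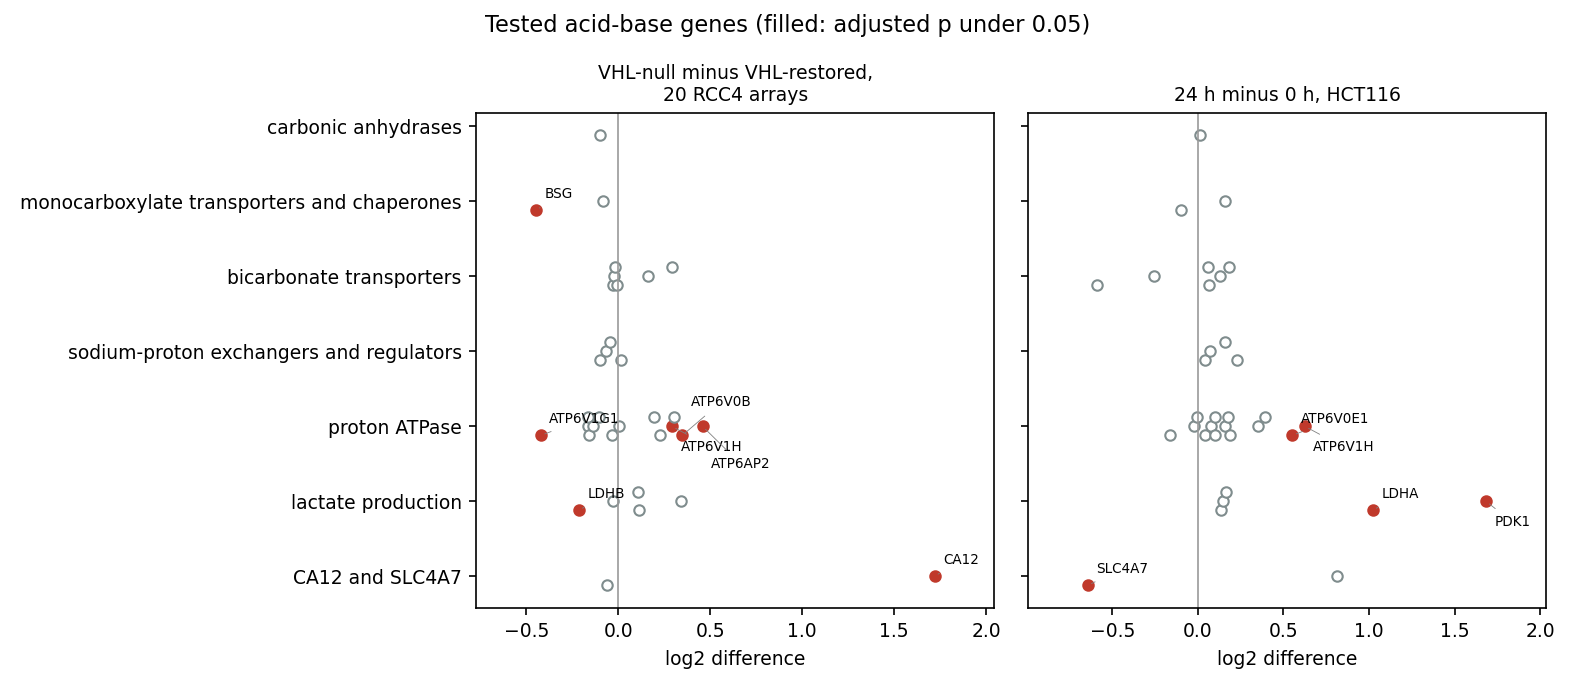
Log2 differences of the tested acid-base genes by list, and of CA12 and SLC4A7, for VHL-null minus VHL-restored over 20 RCC4 arrays (left) and for 24 h minus 0 h in HCT116 (right); each point is a gene, and filled, named points have an adjusted p under 0.05. CA12 at 1.72 is the farthest point on the left, and PDK1 at 1.68 and LDHA at 1.02 are the farthest on the right.

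Between the lines in air, 6 of the 32 acid-base genes were higher and 5 lower in RCC4 than in H1299, and 7 were higher and 5 lower than in HCT116. With 35.3% and 40.5% of all tested genes called, these shares were near those of genes at large. ATP6V0E1 was 1.31 higher in RCC4 than in H1299 and 1.82 higher than in HCT116, ATP6V1B2 was 1.14 higher than in H1299 and ATP6V1A 0.95 higher. CHP2, a regulator of sodium-proton exchangers, was at -1.54 and -1.52 against H1299 and HCT116. SLC26A2 was 2.45 higher in RCC4 than in HCT116 and 1.69 higher in H1299 than in HCT116, and ATP6V1H was 1.43 and 1.62 higher in the same order. Against HCT116, 2 of 32 were higher in H1299 and 0 lower (3.95% of all genes). Without the H1299 array labelled p53 wild type, 3 of 32 were higher and 1 lower in RCC4 than in H1299, where 17.4% of all genes were called. ATP6V0E1 was then at 1.18, ATP6V1B2 at 0.96 and CHP2 at -1.58, all called, and ATP6V1A at 0.72 was not (adjusted p = 0.0530). For H1299 minus HCT116, SLC26A2 was then at 1.65 and ATP6V1H at 1.55, both still called (1.56% of all genes).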

How the data were processed

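The authors deposited whole-number linear intensity values per probe set for each array, scaled by a method not given in the sources used here. Per the labels, RNA was processed with the Affymetrix protocol. Null entries, undefined in the labels, were taken as 0. Values were analysed as log2(value + 16), and each array was centred on its median gene, since array medians spanned 0.903. Of 35356 probe sets, 16905 had 1 symbol, 573 several and 17878 none in the annotation table. The brightest probe set stood for each of 12690 genes, and the upper 60% by mean, 7614, were tested two-sided with limma 3.58.1 (R 4.3.3). P-values were adjusted by Benjamini-Hochberg and read at 0.05. Simulated data with noise were used to check the VHL comparison at 0 h alone. The other fits were checked only for recovering set differences at almost no noise.

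The 8 RCC4 arrays at 0 h and 18 h were fitted with a mean per group, all 20 RCC4 arrays with terms for genotype and state, and the p53 lines with line, genotype or time as blocks, so there genotypes or times serve as replicates. Replicate differences correlated between groups at 0.794 to 0.916 over 6 pairs of groups, so the number marks a shared difference, which equals the array set, and a block on it was fitted. For arrays, their number limits the precision. Promoter windows came from RefSeq.

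Named are the members, in each comparison up to 4 called genes of the 6 acid-base lists by size of limma's statistic, and the 5 (CA12) or 3 genes most correlated with a member. Leukocyte markers stood above the array median for 0 to 2 of 4, endothelial markers for 3 of 5 and fibroblast markers for 2 to 3 of 6. The members and lists were chosen with earlier results of these data known. Alternatives changed the centring, normalization, pseudocount, filter, null entries, probe set rule, block and arrays.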

Additional observations from a re-analysis of the deposited data

Results flagged for a closer look

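The 18 h log2 change of CA12 differed between VHL genotypes with the replicate block, at -1.06 for VHL-null minus VHL-restored cells. This is a test of the difference itself (limma's adjusted p = 0.000608). Without the block it missed the threshold (adjusted p = 1.00). In linear intensity the rise was larger in VHL-null cells.

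CA12 stood above its 0 h array at 24 h in both HCT116 genotypes (0.28 in p53-null and 1.35 in wild-type cells) and below it on both H1299 pairs, a difference of 1.20 as HCT116 minus H1299. The HCT116 change itself did not pass the test (0.81, limma's adjusted p = 0.156). The test of this difference did not pass (limma's adjusted p = 0.857). Without the H1299 pair labelled p53 wild type the difference was 0.96, with 1 H1299 array left at each time and so no spread within H1299. One of the H1299 pairs is that pair, which went against its time labels (-0.63 there, -0.14 in p53-null cells), and CA12 was dim on all these arrays.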

How the results depend on the processing

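Of 626 alternatives over 44 results of CA12 and SLC4A7, 588 kept the direction, and the side of the threshold where there was a test, 11 lost a call, 13 gained one and 14 changed sign. CA12 for VHL at 0 h was not called without the filter on dim genes (2.50, adjusted p = 0.0885), and leaving out each array gave 2.22 to 2.77. The replicate block, where the number pairs the arrays through the array set, left the values of CA12 in place and called VHL at 18 h (1.44), hypoxia in VHL-restored (1.59) and VHL-null (0.53) cells and the interaction (-1.06); it changed no SLC4A7 call among these. The mean over probe sets gave 2.20 for hypoxia in VHL-restored cells (adjusted p = 0.0293). For SLC4A7 at 24 h in HCT116, no filter gave -0.64 (adjusted p = 0.0993) and the mean over probe sets, 1 of them null on all arrays, -0.29 (adjusted p = 0.0912).

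Changes of sign, none of them called, were as follows, and the cause was not tested. Without centring, SLC4A7 was at 0.0079 for VHL at 0 h, 0.0070 for VHL over 20 arrays, 0.089 after 1 h of reoxygenation and 0.073 at 1 h, and CA12 was at -0.095 at 2 h. With the mean over probe sets, SLC4A7 was at 0.026 at 1 h, 0.189 at 2 h and 0.184 at 6 h, and with the array set block it was at 0.0035 at 1 h. Without VHL-restored 0 h replicate 1, SLC4A7 for VHL at 0 h was 0.010. For CA12, 4 h reoxygenation minus 18 h ran from -0.11 to 0.14 on leaving out each array, at -0.11 without VHL-null 18 h replicate 2 and -0.0025 without VHL-restored 18 h replicate 2. The 24 h change of CA12 over both p53 lines was -0.39 in H1299 alone. CA12 in H1299 minus HCT116 was -0.083 without the H1299 p53 wild-type arrays, an alternative chosen after seeing the data. Dim signals limit CA2, and CA12 outside RCC4.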
